A study of Mus musculus with 15 samples.

Results

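On a mouse liver array, 170 probes for exons of long intergenic noncoding RNAs (lincRNAs) were bright in early fetal liver and dim after birth. They were chosen for that pattern from 3457 lincRNA exon probes among 59709 probes in all. A lincRNA exon probe entered if it was well above background, by the scanner software's own test, on all 3 arrays of at least 1 stage, which left 1874 for testing. It was kept if the lower of its E12.5 and E14.5 means exceeded the higher of its neonatal and adult means by at least 1 on the log2 scale, a 2-fold difference. The selected probes are 9.07% of the tested lincRNA exon probes and 4.92% of those on the array. Another 33 lincRNA exon probes passed the threshold of 1 but were not well above background on all 3 arrays of any stage, and 285 tested probes met the mirrored rule, with the later stages higher.

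The arrays measured liver RNA from C57BL/6 mice, an inbred strain, from 3 fetal stages named by embryonic day (E12.5, E14.5, E17.5), from newborns (neonatal) and from adults aged 8 weeks. Each of the 5 stages had 3 arrays, 15 in all, and no group carried a treatment or an engineered allele. Nothing in the labels ties an array to its own animal, so each p-value reflects how far these samples lie apart, a spread that may be technical only. Whole livers were used, and in such bulk RNA fewer cells of a type and less RNA per cell cannot be told apart.

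LincRNAs are transcripts from between protein-coding genes that are spliced and often polyadenylated but not known to be translated. As a class they tend to be made at low levels and in few tissues or stages. The fetal liver is the main blood-forming organ of the mouse embryo, filled with red cell precursors, and blood formation moves to the bone marrow and spleen around birth while hepatocytes take on their adult metabolic work. The files pair these exon probes with no gene, position or sequence. They are therefore named here by the number and sign in the array's own probe name, as in EXON11707+, the sign being read as the strand, which the files do not state.

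The arrays fell into 2 scans, each taken as 1 slide, and the stages were not spread over them. The first slide (8 arrays) held every array of E12.5 and E14.5 together with replicates 1 and 2 of E17.5. The second (7 arrays) held replicate 3 of E17.5 with every neonatal and adult array. The contrast that chose the probes therefore lies wholly between slides, and stage and slide cannot be told apart in it. E17.5 is the one stage on both. Median local background was 31.5 to 35 intensity units on the first slide and 21 to 22 on the second, and per the file headers the scanner software applied multiplicative detrending to 6 arrays, all on the second slide. Apart from E17.5 replicate 1, between 43.3% and 55.3% of lincRNA exon probes were well above background on each array. On E17.5 replicate 1 the share was 74.6%, and 55.8% of negative control spots were also called above background there.

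All values below are log2 processed signals relative to the 75th percentile of the same array's noncontrol probes, so 0 stands for that percentile. In replicate order, the median over the 170 probes was -0.28, -0.95 and -1.19 on the E12.5 arrays, and the E14.5 arrays had -0.49, -0.55 and -0.67. The neonatal arrays had -2.34, -2.50 and -2.30 and the adult arrays -2.37, -2.78 and -2.72. The E17.5 arrays did not lie together: their medians were -0.88, -0.68 and -2.00. The first E17.5 pair lay among the fetal arrays, and the third lay nearer the neonatal ones. Over all 1874 tested lincRNA exon probes the same medians stayed between -1.59 and -1.09 on all 15 arrays.

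The difference used by the rule, given as a description only, had a median of 1.42 with quartiles of 1.17 and 1.71. It ran from 1.00 to 2.81, reached 1.5 in 75 probes and 2 in 18. Just inside the threshold were EXON10559- (1.00), EXON11898- (1.01) and EXON11486+ (1.01), and just outside were EXON10204+ (0.998), EXON11767- (0.996) and EXON12024+ (0.989). In 154 of the 170 all 6 E12.5 and E14.5 arrays lay above all 6 neonatal and adult arrays, a pattern found in 15.4% of tested lincRNA exon probes and 14.9% of all 37363 tested probes. Because the rule used this contrast, nothing is read from the count. None of the 170 was saturated on any array.

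Many of the selected probes were dim after birth rather than measured at a lower level. They were well above background on all 15 arrays in 88 cases. In 40 no neonatal array was well above background, in 44 no adult array was, and in 32 neither stage had one. By array, 154 to 168 of the 170 were well above background on the first slide, 126 on E17.5 replicate 3, 111 to 117 on the neonatal arrays and 99 to 121 on the adult arrays. For the dim stages only a bound on the fold can be given.

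The rule was also applied to 2 replicate numbers of each stage and the same difference read in the third. Chosen without replicates 1, 2 and 3 in turn, 167, 164 and 205 probes were kept. The difference in the replicate left out was above 0 in 156, 153 and 189 of them (93.4%, 93.3% and 92.2%). It reached 1 in 109, 112 and 104 (65.3%, 68.3% and 50.7%), against 10.4%, 10.3% and 6.68% of all tested lincRNA exon probes in those replicates. The replicates left out lie on the same slides as the others, so the slide is not removed by this reading.

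E17.5, whose signal the rule did not use, is the one stage measured on both slides. Only replicate 3 represents it on the second, so a slide effect and a difference of that 1 sample cannot be told apart. E17.5 replicate 3 minus the mean of replicates 1 and 2 had a median of -1.09 over the 170 probes, with quartiles of -1.56 and -0.61. It was below 0 in 150 probes (88.2%) and at -1 or lower in 94. The same difference had a median of -0.36 over all tested lincRNA exon probes, 60.2% of them below 0, and of 0.06 over all tested probes. Over the 285 probes of the mirrored rule it was 0.97. So each set was displaced between the E17.5 arrays in the direction in which it had been chosen. The displacement was -0.97 in the 88 probes well above background on all arrays and -1.31 in the other 82, and it was -1.20 against E17.5 replicate 2 alone, which leaves out the array with bright negative controls. With the normexp background correction the median was -0.47, and the rule kept 48 lincRNA exon probes, all among the 170. In 144 selected probes replicate 3 was below both other E17.5 arrays, a pattern found in 52.1% of tested lincRNA exon probes and 38.7% of all tested probes.

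Within each slide the median steps into and out of E17.5 were smaller than the -1.09 between the E17.5 arrays. They are given as a description. On the first slide, the mean of E17.5 replicates 1 and 2 minus the E14.5 mean had a median of -0.36 and was below 0 in 145 probes, against a median of 0.07 over tested lincRNA exon probes. On the second slide, the neonatal mean minus E17.5 replicate 3 had a median of -0.64 and was below 0 in 139, against 0.00 over tested lincRNA exon probes. These steps share the E14.5 and neonatal arrays with the rule, which chose the first high and the second low. The choice itself thus favours a fall in both steps, and nothing is read from them. E17.5 replicates 1 and 2 lay below all 3 E14.5 arrays in 75 probes, against 18.5% of tested lincRNA exon probes and 24.9% of all tested probes. They lay above all 6 neonatal and adult arrays in 155, against 23.5% of tested lincRNA exon probes. Over all tested probes the share with this pattern was lower than 23.5%. This pattern compares arrays across the slides. E17.5 replicate 3 lay above all 6 neonatal and adult arrays of its own slide in 89 of the 170, against 17.0% of tested lincRNA exon probes and 20.5% of all tested probes. In 120 it lay below all 6 E12.5 and E14.5 arrays, against 35.6% and 27.8%.

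Placed between each probe's later mean (0%) and its E12.5 and E14.5 mean (100%), the median place was 89.5% for E17.5 replicate 1, 100% for replicate 2 and 36.1% for replicate 3. The number of probes nearer the fetal mean was 158, 162 and 67 in the same order. When the slide was entered as a term, its effect estimated through E17.5 alone and so with any difference of replicate 3 as a sample in it, the median rule difference of the 170 was 0.34. It was above 0 in 117 and still at least 1 in 44 (25.9%). In all, 86 lincRNA exon probes met the rule after that adjustment, of which these 44 were shared (51.2% of the 86).

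Across all 15 arrays in 1 limma fit, called at a Benjamini-Hochberg adjusted p below 0.05, 102 of the 170 were lower in neonatal than in E17.5 liver and none was higher, with a median difference of -1.32. That is 60.0%, against 18.6% of tested lincRNA exon probes and 18.1% of all tested probes called in either direction. By direction, 11.9% of tested lincRNA exon probes and 9.66% of all tested probes were called lower. With the second slide's arrays alone, and so 1 E17.5 array that is assumed to vary like the neonatal and adult ones, 26 were called lower and none higher (138 lower and 0 higher at an unadjusted p below 0.05 with all arrays, 64 and 4 on the second slide). On that slide 4.86% of tested lincRNA exon probes and 5.88% of all tested probes were called in either direction, and 2.77% and 3.09% lower. With the slide as a block 25 were called, and 6.06% of all tested probes. Leaving out E17.5 replicate 2 gave 61 calls (10.6% of all tested probes) and leaving out neonatal replicate 2 gave 65 (9.78%). The rule used the neonatal arrays, so these counts describe the set and are no test of it.

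Against E14.5, 5 of the 170 were called lower at E17.5 and none higher (56 and 1 at an unadjusted p below 0.05), with a median of -0.68. All tested probes were called in 7.11% and lincRNA exon probes in 7.31%, and 0.814% and 0.747% were called lower. On the first slide alone limma called none of the 170, with 14 lower and 2 higher at an unadjusted p below 0.05, against 3.77% of all tested probes and 2.83% of lincRNA exon probes called. The count of 5 depended on single arrays. It was 0 without E14.5 replicate 1, 1 without E14.5 replicate 2 or 3, 2 without adult replicate 3, and 3 without E17.5 replicate 3 or any 1 neonatal array. It was 9 without E12.5 replicate 1 and 21 without E17.5 replicate 2. Of all tested probes, these fits called from 3.67% (without E14.5 replicate 1) to 9.92% (without E17.5 replicate 2).

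The probe with the largest rule difference was EXON11707+. Its E12.5 arrays read 0.63, 0.60 and 0.19, the E14.5 arrays 1.85, 1.53 and 1.57, the E17.5 arrays 0.94, 1.45 and -0.56, the neonatal arrays -2.03, -2.30 and -2.67 and the adult arrays -2.73, -3.66 and -2.59. The fetal arrays did not overlap the neonatal and adult ones, and E17.5 replicate 3 lay between the other E17.5 arrays and the neonatal ones. The E14.5 mean was 15.8 times the neonatal and 25.0 times the adult mean, and the rule difference of 2.81 became 1.05 with the slide as a term.

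EXON11960- showed the split more strongly. Its E12.5 arrays read 0.33, 0.32 and -0.29, the E14.5 arrays 1.16, 0.87 and 0.64, the E17.5 arrays -0.26, 0.17 and -2.04, the neonatal arrays -3.04, -2.73 and -2.94 and the adult arrays -1.60, -3.05 and -2.04. E17.5 replicate 3 equalled an adult array, and the rule difference went from 2.35 to 0.35 with the slide as a term. EXON11277- had the same order, at -1.36, -0.47 and -2.72 in the E17.5 arrays and a difference of 2.38 that became 0.58. EXON11224+ stood at -1.91, -1.26 and -5.42 in the E17.5 arrays, 2 of which were well above background, and its difference of 2.16 became -1.68.

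EXON12029- ran the other way between the E17.5 arrays. Its E12.5 arrays read 5.99, 4.99 and 5.13, the E14.5 arrays 5.13, 5.11 and 4.96, the E17.5 arrays 3.38, 3.94 and 4.41, the neonatal arrays 2.75, 2.58 and 2.63 and the adult arrays 2.88, 2.05 and 2.53. E17.5 replicate 3, on the neonatal slide, was the highest of its stage and lay 1.66 above the highest neonatal array. The E14.5 mean was 5.32 times the neonatal mean and 6.00 times the adult mean, and the rule difference of 2.41 became 3.16 with the slide as a term. EXON10559+, at 4.21, 4.85 and 5.30 in the E17.5 arrays, and EXON12047+, at 3.67, 4.25 and 4.89, had the same order of E17.5 arrays. The reference genes Actb, at 6.56, 6.95 and 7.65, and Hprt, at 6.59, 7.16 and 7.74, had it as well. The order is thus not particular to these probes. EXON12029-, EXON10559+ and EXON12047+ were all among the 5 selected probes of highest fetal signal.

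The 2 other probes of that bright group, EXON11549- and EXON10699+, had E17.5 arrays that lay together. EXON11549- had E12.5 arrays at 5.87, 5.25 and 4.83, the E14.5 arrays 6.56, 6.13 and 6.16, the E17.5 arrays 5.55, 5.96 and 5.54, the neonatal arrays 3.30, 3.64 and 2.79 and the adult arrays 2.05, 1.46 and 1.75. Its E14.5 mean was 8.25 times the neonatal and 23.1 times the adult mean. On the second slide alone its neonatal mean minus E17.5 replicate 3 was -2.30. EXON10699+ read 5.01, 5.27 and 5.34 at E17.5 and 2.84, 3.37 and 2.62 in neonatal liver, a difference of -2.39 on that slide. Each of these differences rests on 1 E17.5 array.

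EXON10400- and EXON10839+ were well above background on all 15 arrays and lost part of their difference with the slide as a term. EXON10400- had E17.5 values of 1.66, 2.0 and 0.95 and a difference of 2.38 that became 1.5. EXON10839+ had 1.92, 2.22 and 0.94, and its 2.35 became 1.22.

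The probes with the highest and lowest E17.5 mean relative to E14.5 had E17.5 arrays far apart. EXON11944- read -1.59, -2.13 and 0.52 in the E17.5 arrays and EXON11431+ read -1.16, -0.64 and 1.05, so that in both the third array alone was far above the E14.5 arrays. EXON10817+, also among the highest by its E17.5 mean, read -2.06, -0.97 and -5.53, with the third array far below the E14.5 arrays. EXON11779-, among the lowest, read -3.18, -4.55 and -5.31 and was not well above background on any E17.5 array.

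The rule did not use the difference between E12.5 and E14.5 itself, but it used the lower of their means. The choice thus bears on that difference, and the shares below are given as a description. Between these stages, which share the first slide, the E14.5 mean was the higher in 121 of the 170, with a median difference of 0.32. It was at least 1 higher in 25 and at least 1 lower in 4. Limma called 5 probes higher and 2 lower at E14.5 (38 and 4 at an unadjusted p below 0.05), which is 4.12%, against 4.75% of tested lincRNA exon probes and 4.93% of all tested probes. Taken by direction, 0.747% of tested lincRNA exon probes and 1.82% of all tested probes were called higher, and 4.0% and 3.11% lower. All 3 E14.5 arrays lay above all 3 E12.5 arrays in 45 selected probes (26.5%), against 11.9% of tested lincRNA exon probes and 11.3% of all tested probes, and below them in 10 (5.88%), against 14.4% and 16.7%.

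The number called moved with single arrays. E12.5 replicate 1 was the highest E12.5 array in 142 of the 170, and in 66.5% of tested lincRNA exon probes. The median SD over 3 arrays of the selected probes was 0.44 at E12.5 and 0.20 at E14.5. Without E12.5 replicate 1, 28 were called higher and 3 lower, 31 in all, against 7.12% of all tested probes and 7.94% of lincRNA exon probes in either direction and 3.69% and 3.63% called higher. In either direction 2 were called without E12.5 replicate 3, 1 without E14.5 replicate 1, 2 without E14.5 replicate 3 and 17 without E17.5 replicate 3. The shares of all tested probes called were, in that order, 2.71%, 1.79%, 2.16% and 6.83%.

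The 5 probes called higher at E14.5 were EXON10833-, EXON10256-, EXON12078+, EXON11805- and EXON10184-. EXON10833- had E12.5 arrays at 1.89, 1.30 and 0.99 and E14.5 arrays at 2.74, 2.71 and 2.56, a change of 1.27 (SE 0.26, limma adjusted p = 0.0105). EXON12078+ had E12.5 arrays at 3.54, 3.13 and 2.88 and E14.5 arrays at 4.62, 4.08 and 4.38, a change of 1.18 (SE 0.24, limma adjusted p = 0.0102). In each the E14.5 arrays lay above all the E12.5 arrays. EXON10256- rose by 1.23 (SE 0.29, limma adjusted p = 0.0258), EXON11805- by 1.16 (SE 0.25, limma adjusted p = 0.0159) and EXON10184- by 1.07 (SE 0.29, limma adjusted p = 0.0498). The calls of EXON10833- and EXON12078+ held under all 8 other settings. That of EXON10256- held under 6 of 8, that of EXON11805- under 4 of the 7 that gave a value, and that of EXON10184- under 4 of 8 and in 3 of the 15 fits with an array left out. All 5 calls ended without E12.5 replicate 3 or without E14.5 replicate 1.

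EXON11957- and EXON11970- were called lower at E14.5. EXON11957- had E12.5 arrays at 0.81, 1.34 and 0.96, E14.5 arrays at -1.08, -0.74 and -1.20, and E17.5 arrays at -1.24, -1.0 and -2.62. It fell by 2.05 (SE 0.35, limma adjusted p = 0.00371), and the call held under all 8 other settings and without any 1 of the 15 arrays. Its drop between E12.5 and E14.5 thus lay within the first slide. EXON11970- fell by 3.54 (SE 0.76, limma adjusted p = 0.0158). Its E12.5 values of 2.07, -1.43 and -1.66 lay far apart, 1 of the 3 E14.5 arrays was well above background, and the call ended on the first slide alone and without E14.5 replicate 1 or 3.

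Between neonatal and adult liver, which share the second slide, the median difference of the selected probes, adult minus neonatal, was -0.03, against 0.39 over tested lincRNA exon probes and 0.17 over all tested probes. Limma called 17 lower and 1 higher in the adult (23 and 4 at an unadjusted p below 0.05), 10.6% of the 170 against 20.3% and 25.9%. By direction, 6.83% of tested lincRNA exon probes and 13.4% of all tested probes were called lower, and 13.4% of tested lincRNA exon probes higher. All 3 adult arrays lay below all 3 neonatal arrays in 31 and above them in 14 (18.2% and 8.24%), against 12.1% and 35.5% of tested lincRNA exon probes and 22.6% and 29.3% of all tested probes. The rule limited the higher of the neonatal and adult means, so the choice itself bears on their difference. Nothing is read from how these medians and shares compare. In 40 of the 170 no neonatal array was well above background, and for the 17 called lower the number with all 3 neonatal arrays well above background was 15.

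EXON10239+ had the largest of these falls. Its E12.5 arrays read 3.01, 2.15 and 1.65, the E14.5 arrays 3.57, 2.92 and 3.39, the E17.5 arrays 2.63, 2.72 and 2.82, the neonatal arrays 0.17, 0.46 and -0.22 and the adult arrays -3.00, -2.96 and -3.05. It fell by 3.14 from neonatal to adult liver (SE 0.32, limma adjusted p = 4.95e-06), under all 8 other settings and without any 1 array. The E17.5 arrays of both slides lay within 0.20 of each other, and the E14.5 mean was 78.6 times the adult mean.

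EXON11901- also came down in steps. Its E12.5 arrays read 2.85, 1.21 and 0.42, the E14.5 arrays 2.23, 1.79 and 2.18, the E17.5 arrays 1.25, 0.88 and 0.91, the neonatal arrays -0.96, -0.77 and -1.60 and the adult arrays -3.68, -3.99 and -3.62. No adult array was well above background, so the E14.5 mean was at least 43.8-fold higher than the adult mean. It fell by 2.65 between neonatal and adult liver (SE 0.46, limma adjusted p = 0.000745). EXON11653- fell by 2.18 (SE 0.53, limma adjusted p = 0.00827), EXON10740- by 1.90 (SE 0.37, limma adjusted p = 0.00171) and EXON11438+ by 1.89 (SE 0.37, limma adjusted p = 0.00192). These 4 calls held without any 1 array but ended with the normexp background correction. There the changes were -0.85 (EXON11901-), -0.18 (EXON11653-), -0.55 (EXON10740-) and -0.06 (EXON11438+). EXON11653- was well above background on 11 of the 15 arrays. In 4 of the 17 probes called lower no adult array was well above background, and there only a bound on the fold can be given. EXON11583+ was the one called higher in the adult (1.38, SE 0.39, limma adjusted p = 0.0178). That call ended with quantile normalization and with normexp, and no neonatal or adult array was well above background, so no fold is given.

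Each exon number on this array has a plus and a minus probe, with 1 exception among 1729. The selected probes were 79 plus and 91 minus, from 161 exon numbers. For 85 of the 170 the opposite-sign probe was also tested. Of these 85, 18 were themselves selected (9 exons, 21.2%, against 9.07% of all tested lincRNA exon probes), and 57 (67.1%) had a higher fetal than later mean, against 53.5%. Their median fetal minus later difference was 0.57, and 0.32 in the 67 that were not selected, against 0.08 over all tested lincRNA exon probes. Over the 15 arrays, the correlation between the probes of the 9 exons with both signs selected ran from 0.55 to 0.94. Both probes share all 15 arrays and the difference between slides.

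Probes of the same exon could share the order of the E17.5 arrays. EXON10559+ and EXON10559- both had E17.5 replicate 3 as the highest of the stage, the minus probe at -2.82, -2.50 and -1.40. Among the exons with both signs selected, EXON10840 and EXON11653 had the closest pairs, with r of 0.94 and 0.92 over 15 arrays.

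In 11 of the 85 the opposite-sign probe passed the same threshold the other way, dim in the fetus and brighter after birth. That is 12.9%, beside 15.2% of all tested lincRNA exon probes that met the mirrored rule. The widest contrast was at exon 11707. While EXON11707+ stood between 0.19 and 1.85 in E12.5 and E14.5 liver and between -3.66 and -2.03 after birth, the E12.5 arrays of EXON11707- read -4.96, -4.17 and -4.85, its E14.5 arrays -5.83, -5.53 and -5.77, its E17.5 arrays -4.14, -5.26 and -2.17, its neonatal arrays -2.66, -2.50 and -3.08 and its adult arrays -1.78, -2.28 and -1.90. The minus probe was well above background on all neonatal and adult arrays, on no E12.5 or E14.5 array, and on 1 E17.5 array. The correlation between the probes over 15 arrays was -0.91. In both, E17.5 replicate 3 lay on the later side of its own stage. Over the 11 pairs the correlation ran from -0.91 to -0.49.

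Neighbouring exon numbers were also counted. Of 153 distinct tested same-sign probes with an exon number next to a selected one, 14 were selected (9.15%, against 9.07%). The 14 form 7 pairs, among them EXON10839+ with EXON10840+ and EXON12046+ with EXON12047+. Whether neighbouring numbers lie in the same transcript is not given in the sources used here.

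The name of blood-forming liver could be checked against 1 gene. Of 14 red cell, 7 blood stem cell and 4 megakaryocyte markers listed for this purpose, only Tfrc, the transferrin receptor that brings iron into red cell precursors and other dividing cells, was among the named probes. Its E12.5 arrays read 9.50, 8.62 and 8.54, the E14.5 arrays 9.04, 8.79 and 8.76, the E17.5 arrays 8.10, 8.39 and 9.27, the neonatal arrays 8.24, 8.27 and 7.98 and the adult arrays 5.81, 5.63 and 5.06. Its neonatal arrays lay below every E12.5 and E14.5 array, with a neonatal mean of 8.16 against 8.89 and 8.86. Most of its fall came later, to an adult mean of 5.5, whereas the selected lincRNA probes were already low in the neonate. The fetal minus later difference of Tfrc was 2.05, against a median of 1.87 in the selected probes. Its correlation with their median profile was 0.71, and both figures span the slides. At E17.5 its replicate 3 lay 1.03 above the mean of the other arrays, opposite in sign to the selected probes' median of -1.09. The reference genes Actb (0.90), Hprt (0.86), Gusb (0.81), Tbp (0.77), Gapdh (0.66) and Ppia (0.61) were higher in replicate 3 too. Over all tested probes the median was 0.06. The rise is thus not particular to Tfrc. Whether the selected set follows blood cells was not tested, since only 1 of these markers was among the named probes. The set is described here by its rule. EXON12029-, EXON10559+ and EXON12047+ shared the order of the E17.5 arrays with Tfrc and with these reference genes. These lincRNA exon probes were low in neonatal as well as adult liver.

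The other listed cell markers were as sparse. Dividing cells were represented by 4 of 9 genes, macrophages and lymphoid cells by 3 of 10, hepatocytes by Hmgcs1 and Gk of 9, pancreas by Amy2a5 of 4, and bile duct, stellate and endothelial cells by none of 4 and 5. Between the E17.5 arrays the histone genes H2ac19 and H2ac23 and the tubulin gene Tuba1b differed by 1.05, 0.50 and 0.71, replicate 3 being the higher in each. The last gene of that list, the histone gene H2ac18, differed by 0.11, and its fetal minus later difference was -4.04, opposite in sign to that of the selected probes. In H2ac23, Tuba1b and H2ac19 the fetal minus later difference was 3.41, 1.52 and 1.29, the same sign as in the selected probes. The reference genes Actb, Hprt and Gapdh above also had replicate 3 higher, so this rise is not particular to dividing cells. What part the listed markers had in the results of the selected probes was not tested.

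Among the 75 tested genes with a symbol, those whose 15 values correlated most with the median profile of the selected probes were Vmn1r187 (r = 0.98), H2al2b (0.94) and Vmn1r257 (0.93). Vmn1r187 and Vmn1r257 are vomeronasal receptor genes, known from sensory neurons of the nose, and H2al2b is a histone gene. Vmn1r187 read 0.44, -0.66 and -1.19 at E12.5 and -0.05, 0.41 and -2.17 at E17.5, so it shared the high E12.5 replicate 1 and the low E17.5 replicate 3 of the selected median. The most negative were Vmn1r157, Gk, the glycerol kinase gene, and Tmlhe, an enzyme gene of carnitine synthesis, each at -0.89. All these correlations share the 15 arrays and the difference between slides, and they are given as a description.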

How the data were processed

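Per the file headers, the authors' deposited scanner files hold linear spot intensity values after background subtraction and spatial detrending in Feature Extraction 11.0.1.1 (the submitters' processing notes name 10.7.3.1) with no scaling between arrays. The authors' deposited value table holds log2 values of 29158 probes, 115 of the 170 among them; its normalization is not given in the sources used here. It served as an alternative.

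Outlier spots were left out, spots of a probe were averaged, and log2 signal was taken relative to each array's 75th percentile over noncontrol probes. Differences were tested with limma 3.58.1 under R 4.3.3 (lmFit, then eBayes; two-sided), each stage having its own mean and no block being used, over the 37363 probes that every array of some stage measured well above background, and adjusted by Benjamini-Hochberg per comparison. The code was tested on simulated data. Where a stage had no array well above background, the fold is a bound: the dim level was raised, on each array, to the lowest signal of any probe well above background there if the probe lay under it. The number of arrays limits the precision.

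The members and lists were chosen with earlier results of these data known. Named probes were those with the largest rule difference (8), the highest fetal signal (5), 3 on each side of the threshold, up to 5 called each way between E12.5 and E14.5 and between neonatal and adult liver, the 3 highest and 3 lowest at E17.5 relative to E14.5, and the 3 symbols most and least like the median profile. Of 123 probes with a RefSeq accession, 116 matched a symbol in the reference gene tables. Alternatives were quantile normalization, normexp with offset 50, a percentile over detected probes, no filter, other rule thresholds, the slide or the replicate number as a block, 1 slide alone, and each array left out.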

Additional observations from a re-analysis of the deposited data

How the results depend on the processing

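The rule kept 122 to 229 lincRNA exon probes under quantile normalization, another percentile, no filter, the authors' table and thresholds of 0.8 and 1.2. It kept 48 with the normexp correction and 86 with the slide as a block, and 145 to 196 with 1 array left out. Called between E14.5 and E12.5 were 26 of the selected probes with normexp, 11 in the authors' table, 17 with the slide block and 1 to 31 with 1 array left out, against 7. Over all probes tested in each fit the shares called were 8.03%, 7.83%, 6.96% and 1.79% to 7.12%, against 4.93%. Between E17.5 and E14.5 the 5 calls became 15 with quantile normalization, 15 with normexp, 3 with the percentile over detected probes, 1 with no filter, 3 with the slide block, 0 on the first slide alone and 0 to 21 with 1 array left out. The shares of all tested probes were 7.12%, 9.85%, 7.79%, 3.22%, 7.98%, 3.77% and 3.67% to 9.92%, against 7.11%. Between neonatal and E17.5 liver the 102 calls became 25 with the slide block and 61 to 148 with 1 array left out. Over all tested probes the share called went from 18.1% to 6.06% and to between 9.78% and 36.1%. Between adult and neonatal liver the 18 calls became 10 with normexp and 13 to 23 with 1 array left out. There the share of all tested probes went from 25.9% to 26.8% and to between 17.8% and 32.1%. The median from E17.5 to neonatal liver, -1.32, was -0.60 with normexp and -1.74 to -1.18 with 1 array left out. From E14.5 to E17.5 it was -0.34 with normexp and -0.88 to -0.36 with 1 array left out, against -0.68. For E17.5 replicate 3 against its own stage, -1.09 became -0.47 with normexp, -1.49 with the percentile over detected probes and -1.20 to -0.97 with 1 array left out. None of these medians and no change of a named call turned its sign, but with the slide as a term the rule difference was at or below 0 in 53 of the 170, and without E12.5 replicate 3 the calls at E14.5 were 0 higher and 2 lower, against 5 and 2. The cause of these shifts was not tested. The rule with the slide block and the medians over bright probes were chosen after seeing the data, as was the use of the median spot signal in the normexp correction.

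Samples with the same replicate number did not in general deviate together (median r 0.015 over 30 pairs of stages and numbers, range -0.243 to 0.478). This gave no sign that the numbers pair the samples, but with so few arrays per stage it cannot exclude it. With the replicate block 9, 7, 108 and 19 selected probes were called in the 4 steps from E12.5 to adult, against 7, 5, 102 and 18. Of all tested probes that block called 4.33%, 7.11%, 18.6% and 26.5%. For the probes that were not well above background after birth, signal over background allows only a lower bound on the difference.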
